A study of Mus musculus with 4 samples.

Results

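TEC genes are entries of the mouse gene annotation that still await experimental proof of a gene, the class being known by its short name TEC. In MuSCs (muscle stem cells) of the plantaris muscle, 187 autosomal TEC genes were counted often enough to be described, and they were compared between sham surgery and tenotomy and with the genes in whose introns most of them lie. They were the TEC genes outside chromosomes X and Y with at least 20 unique molecular identifiers (UMIs, random tags by which copies of the same captured molecule are recognised) summed over 4 libraries. They made up 187 of 1254 autosomal TEC genes listed and of 19353 genes in all. Within the class they were chosen by that sum alone, whereas the class itself was taken up with earlier results of these data known. At the minimum itself stood 12 of the 187, among them 2610012C04Rik, 3110080O07Rik and Gm37706 with 20 UMIs each, and among the TEC genes just below it were Gm38070, A430027C01Rik and Gm43679 with 19 each. The median sum was 32 UMIs and the highest was 376, for Gm43430.

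All 4 libraries came from Pax7-CreERT2:Rosa-YFP mice, in which tamoxifen lets a Cre recombinase driven by Pax7 switch on yellow fluorescent protein (YFP), so that the sorted cells are those that expressed Pax7 when tamoxifen was given, together with their progeny. Both sham libraries and both tenotomy libraries were made by CEL-Seq2 from tubes of 100 YFP-sorted cells at 4 days after surgery, tenotomy being the surgery that overloads the plantaris. The libraries held 269683 and 260488 UMIs after sham surgery and 387955 and 483528 UMIs after tenotomy. The age of the mice, and whether the libraries represent separate animals or include both muscles of 1 mouse, are not given in the sources used here, so the p-values measure the spread between these libraries, which may be technical. All 8 markers of MuSCs were present in every library. Pax7, the factor that defines these cells, had 118 and 107 UMIs in sham and 108 and 137 in tenotomy.

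The TEC class gathers places where unspliced expressed sequence tags with signs of a poly(A) tail cluster, without proof that a separate gene is transcribed there. Many such places lie inside introns of longer genes on the same strand, where a stretch of the unspliced precursor of the longer gene and a separate intronic transcript have the same sequence. CEL-Seq2 starts its copies with an oligo(dT) primer, which anneals to poly(A) tails and can also anneal to runs of A within a transcript.

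Of the 187 TEC genes, 163 (87.2%) overlapped another gene on the same strand, and 160 of these lay wholly within introns. Among all 1254 autosomal TEC genes listed, 71.5% overlapped a same-strand gene. The gene overlapped is called the host here. A host on the opposite strand was found for 10 TEC genes, while 14 overlapped no other gene. All 187 consisted of a single exon, and 4 touched an untranslated region of their host. The 163 lay in 123 hosts, and 25 hosts held several of them, 65 in total, so that these are not independent of each other. Ank2, which encodes a membrane adaptor of the ankyrin family, and Mir99ahg, the host transcript of a microRNA cluster, held 5 each, and Akap13, which encodes a scaffold that anchors protein kinase A, held 4. The strand setting of the authors' counting is not given in the sources used here, and reads of a TEC gene and of the unspliced host on the same strand cannot be told apart in any case. With strand ignored, the same holds for the 10 with opposite-strand hosts.

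A run of at least 10 A somewhere in the transcript was present in 89 of the 187 (47.6%), against 23.1% of the 1067 autosomal TEC genes below the minimum and 18.01% of all 3204 in the annotation. The 187 were somewhat longer, with a median of 2561 bases against 2210 below the minimum, and per length they held 2.06 such runs per 10 kb against 1.16 below the minimum and 1.02 in the whole annotation. The difference was small in the last 200 bases, where 4.81% of the 187 and 3.19% of those below the minimum held such a run. The hexamers AATAAA or ATTAAA, which direct cleavage and polyadenylation, occurred there in 32.1% and 43.4%. The motifs were searched on the strand of the gene only, and a match is a description of letters. Deposited counts are per gene, so at which place in a transcript the UMIs arose was not tested.

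In the lines that follow, the longest A run of 4 of the most counted TEC genes that lie wholly in an intron of the only gene they overlap and hold such a run is shown with up to 60 bases before and 10 after it, since these stretches show what the oligo(dT) primer could meet. Gm43430, the most counted of all, also meets these conditions with a longest run of 10 A, but its sequence is not shown. The sequences are GENCODE M21 transcripts (GRCm38), 5′ to 3′, with the A run in capitals.
Gm38211: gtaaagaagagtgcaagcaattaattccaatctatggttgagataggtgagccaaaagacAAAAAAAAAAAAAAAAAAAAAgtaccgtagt
5330406M23Rik: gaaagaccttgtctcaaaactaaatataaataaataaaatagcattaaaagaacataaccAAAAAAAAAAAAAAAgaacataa
Gm37452: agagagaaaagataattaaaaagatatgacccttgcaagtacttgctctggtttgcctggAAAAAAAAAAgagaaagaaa
Gm44639: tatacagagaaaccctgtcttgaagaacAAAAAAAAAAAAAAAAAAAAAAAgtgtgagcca
Gm38211 lies in Col5a2 (chr1:45488765-45488855, minus strand), and 5330406M23Rik lies in the long noncoding RNA gene Lncpint (chr6:31108827-31108909, minus strand). Gm37452 lies in Tshz3 (chr7:36710702-36710781, plus strand) and Gm44639 in Abhd2 (chr7:79277767-79277827, plus strand). Only in 5330406M23Rik, among these 4, did the run stand near the annotated end, 8 bases before it. In the other 3 it lay between 562 and 2958 bases before the end.

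The TEC genes took a smaller share of the transcriptome after tenotomy. The 187 together held 0.913% and 0.931% of all UMIs in the sham libraries and 0.495% and 0.540% in the tenotomy libraries. The groups did not overlap, and the mean share was 0.922% ± 0.0125 (SD, n = 2) in sham and 0.518% ± 0.0315 (SD, n = 2) in tenotomy, 1.78-fold lower after tenotomy. With 2 libraries per group no test of this single value was made. Their 128 hosts in the table held 2.44% and 2.35% in sham and 2.11% and 2.05% in tenotomy, a ratio of 0.869. For each 100 UMIs of the same-strand hosts, 36.4 and 37.0 UMIs fell on TEC genes in sham and 21.5 and 24.7 in tenotomy. In UMIs per tube, that is per 100 cells, the 187 held 2463 and 2425 in sham and 1922 and 2611 in tenotomy. On this scale the groups overlapped, and the tenotomy libraries held more UMIs overall. In such pooled samples a smaller number of cells with a transcript and less of it per cell cannot be told apart.

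**Figure D1:**
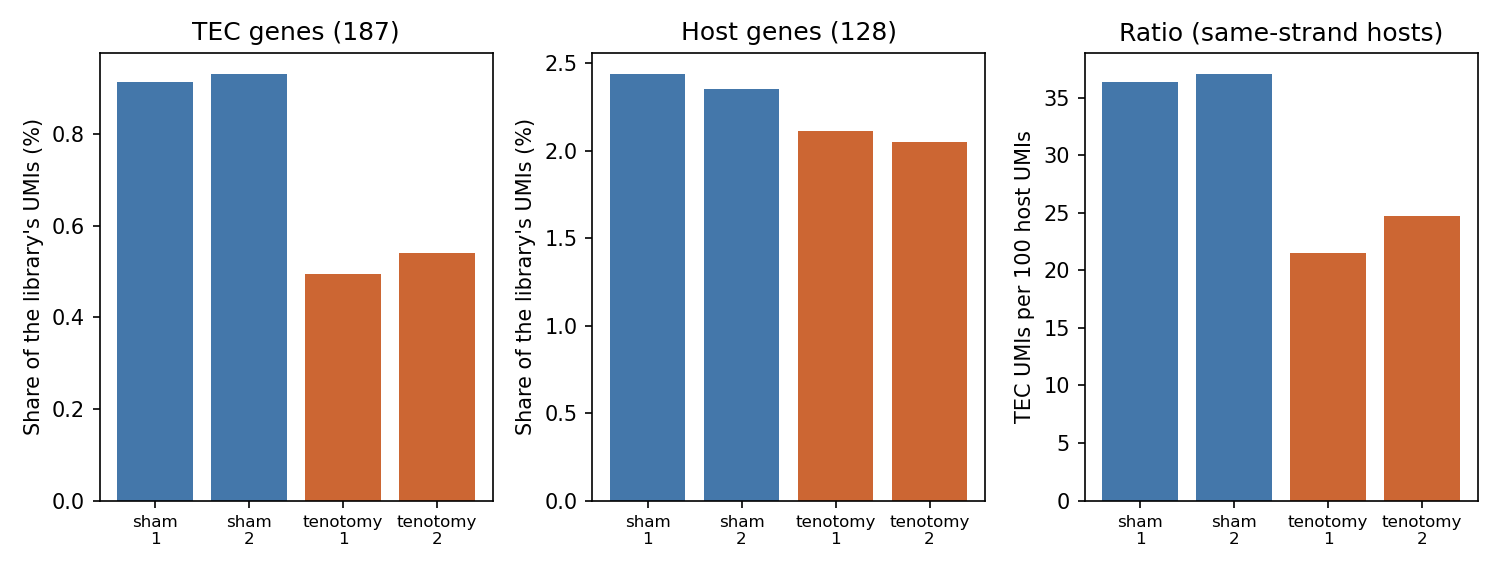
Bars give, for each of the 4 libraries, the percentage of all UMIs held by the 187 TEC genes (left) and by their 128 hosts (middle), and the TEC UMIs per 100 UMIs of same-strand hosts (right). Both tenotomy bars lie below both sham bars in each panel, with a ratio of the mean shares of 0.561 for the TEC genes and 0.869 for the hosts.

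Relative to the other transcripts of their library (in CPM, UMIs brought to equal library totals by the TMM method), most TEC genes that could be tested were lower after tenotomy. The quasi-likelihood test of edgeR, adjusted by Benjamini-Hochberg over 7228 genes with a threshold of 0.1, was made for 84 of the 187, and 56 of them fell, 1 rose and 27 did not pass. Of all genes tested, 26.3% fell and 25.8% rose. The median log2 fold change of the 84 was -1.22, against 0.05 for all genes tested. The filter on low counts bears on these numbers, because 23 of the 84 reached its minimum in both sham libraries and in no tenotomy library, against 3 with the reverse pattern. All 23 are among the 56 that fell, and the choice through sham bears on their direction. Of the 29 that reached it in all 4 libraries, 21 fell. Over all 187, in CPM, both tenotomy libraries were below both sham libraries in 110 and above in 18, and the groups overlapped in 59. For all genes with at least 20 UMIs the shares below and above were 31.7% and 37.7%. The 103 TEC genes not tested held 0.215% and 0.247% of UMIs in sham and 0.172% and 0.180% in tenotomy.

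These counts depended on the scale. In UMIs per tube without scaling, 17 of the 84 fell and 9 rose, while 4.58% of all genes fell and 62.0% rose, and the median log2 fold change was -0.26 for the TEC genes and 1.01 for all genes tested. Both tenotomy libraries were then below both sham libraries in 38 of the 187 and above in 49, against 6.83% and 71.4% of all genes with at least 20 UMIs. With DESeq2 33 of the 84 fell and 0 rose, beside 14.5% of all genes that fell. With no filter on low counts all 187 could be tested, and 75 fell and 7 rose, beside 9.32% and 12.7% of all 19353 genes.

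In CPM, several other noncoding classes had more genes that fell than rose. Among sense_intronic genes, annotated noncoding genes within introns, 14 of 18 tested fell and 0 rose, with a median log2 fold change of -1.50. Of 119 processed pseudogenes 80 fell and 5 rose (median -1.06), of 42 lincRNA genes 21 fell and 7 rose (median -0.85), and of 19 antisense genes 8 fell and 2 rose (median -0.83). Of the 2 bidirectional_promoter_lncRNA genes tested 0 fell and 1 rose. Of 6868 protein-coding genes 1673 (24.4%) fell and 1848 (26.9%) rose. The direction depended on the scale, as summed UMIs per tube had ratios of tenotomy to sham of 0.991 for sense_intronic genes, 1.07 for processed pseudogenes, 1.18 for lincRNA genes and 1.11 for antisense genes, beside 0.927 for the TEC genes and 1.68 for protein-coding genes. The TEC genes were not compared with these classes by a test.

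**Figure D2:**
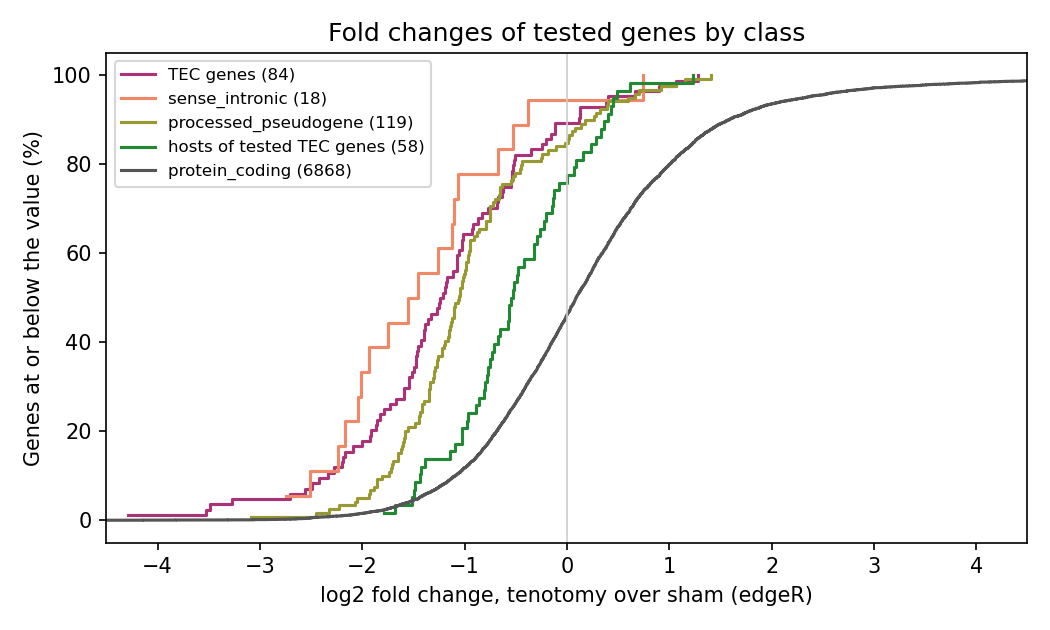
Curves give the percentage of tested genes (vertical axis) at or below each log2 fold change of tenotomy over sham (horizontal axis) for 84 TEC genes, the 58 tested hosts of tested TEC genes, sense_intronic genes, processed pseudogenes and protein-coding genes. The curve of the TEC genes, with a median of -1.22, lies to the left of that of their hosts and close to those of sense_intronic genes and processed pseudogenes.

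The most counted TEC gene, Gm43430 (ENSMUSG00000106149), lies in an intron of Nfkb1, which encodes the p105 and p50 subunits of NF-κB. It had 141 and 121 UMIs in sham and 39 and 75 in tenotomy, although the tenotomy libraries were deeper. The groups did not overlap, and the mean level fell from 581 ± 46.4 CPM (SD, n = 2) to 127 ± 35.7 CPM (SD, n = 2), a log2 fold change of -2.17 (SE 0.20, adjusted p = 4.1e-07, edgeR). Nfkb1 itself had 314 and 342 UMIs in sham and 160 and 211 in tenotomy, and its level fell by 1.79 on the log2 scale (SE 0.16, adjusted p = 3.9e-07, edgeR). Both falls passed the threshold also in UMIs per tube, with log2 fold changes of -1.20 and -0.82. The difference between Gm43430 and its host, -0.38 (SE 0.25), did not pass (adjusted p = 0.29 over 126 pairs, edgeR).

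Gm38211 (ENSMUSG00000104476; chr1:45485836-45493052, minus strand) lies in Col5a2, the gene of a type V collagen chain. Its counts were 86 and 84 in sham and 81 and 75 in tenotomy, close to each other before the depth of the libraries is taken into account. In CPM it was 374 and 381 in sham and 211 and 152 in tenotomy, and fell by 1.08 on the log2 scale (SE 0.19, adjusted p = 0.00029, edgeR). Col5a2, with 103 and 97 UMIs in sham and 162 and 208 in tenotomy, did not pass, with a log2 fold change of -0.08 (SE 0.16, adjusted p = 0.73, edgeR). The difference between the TEC gene and its host was -0.999 on the log2 scale (SE 0.25, adjusted p = 0.0099, edgeR). That call was lost without sham replicate 2 (adjusted p = 0.14).

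5330406M23Rik (ENSMUSG00000104030; chr6:31108827-31110920, minus strand) had 85 and 79 UMIs in sham and 62 and 79 in tenotomy. Its host Lncpint, a noncoding RNA gene induced by p53, had only 20 and 10 UMIs in sham and 7 and 11 in tenotomy. The TEC gene fell (log2 fold change -1.18, SE 0.18, adjusted p = 6.7e-05, edgeR), as did Lncpint (-1.68, SE 0.43, adjusted p = 0.0047, edgeR), and the difference of 0.50 (SE 0.47) did not pass (adjusted p = 0.46, edgeR). The fall of Lncpint did not pass without sham replicate 1 (adjusted p = 0.12). UMIs are not divided by length here, as each stands for a captured molecule, and on that scale 16 of the 163 same-strand TEC genes had more of them than their host. Among these, A930004J17Rik had 49 while its host Srsf4, a splicing factor gene, had 3. Of the 16, 12 were tested and 8 fell, a share of 66.7%, equal to that of all 84 tested TEC genes. A930004J17Rik is outside the naming rule and was picked with its values known. For 9 of the 163, which overlap more than 1 gene, the choice of host is a choice among these genes.

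The remaining TEC genes among the 10 most counted fell as well. 7330423F06Rik, within Abcb1b, the gene of a multidrug efflux pump, had 47 and 46 UMIs in sham and 24 and 33 in tenotomy (log2 fold change -1.67). Abcb1b fell with it (-1.39). Gm44639 in Abhd2, a lipid hydrolase gene, had 51 and 52 UMIs in sham and 16 and 28 in tenotomy (-2.19). Gm37452, within Tshz3, a zinc finger transcription factor gene, had 55 and 38 against 35 and 40 (-1.27), and Gm40309, within Ube2k, the gene of a ubiquitin-conjugating enzyme, had 43 and 36 against 33 and 38 (-1.11). Gm47586, within 2010111I01Rik, had 68 and 60 against 65 and 91, the smallest change of the 10 (-0.68, adjusted p = 0.0073, edgeR). Gm43361 stands opposite to Atp2a2, the gene of the calcium pump SERCA2, and had 39 and 44 against 33 and 44 (-1.07). In UMIs per tube Gm37452, Gm40309, Gm43361, Gm38211 and 5330406M23Rik no longer passed, and Gm47586 had a log2 fold change of 0.28 (adjusted p = 0.37). Gm47586 did not pass with DESeq2 (adjusted p = 0.14) or with offsets for abundance either (log2 fold change -0.34, adjusted p = 0.17).

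Gm37899 (ENSMUSG00000102657; chr12:109668869-109677585, plus strand) is the only one of the 10 with no host in the table. It had 51 and 64 UMIs in sham and 8 and 15 in tenotomy, and its log2 fold change was -3.27 (SE 0.30, adjusted p = 4.0e-07, edgeR). It lies 7.15 kb beyond the end of Rian and 52.2 kb before the start of Mirg, long noncoding RNA genes of the imprinted cluster that also holds Meg3, all on the same strand. Rian had 99 and 113 UMIs in sham and 21 and 36 in tenotomy and fell by 2.86 on the log2 scale. Mirg, with 74 and 73 against 18 and 8, fell by 3.44. Meg3 fell by 2.11. These neighbours were looked up after the values of Gm37899 had been seen.

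**Figure D3:**
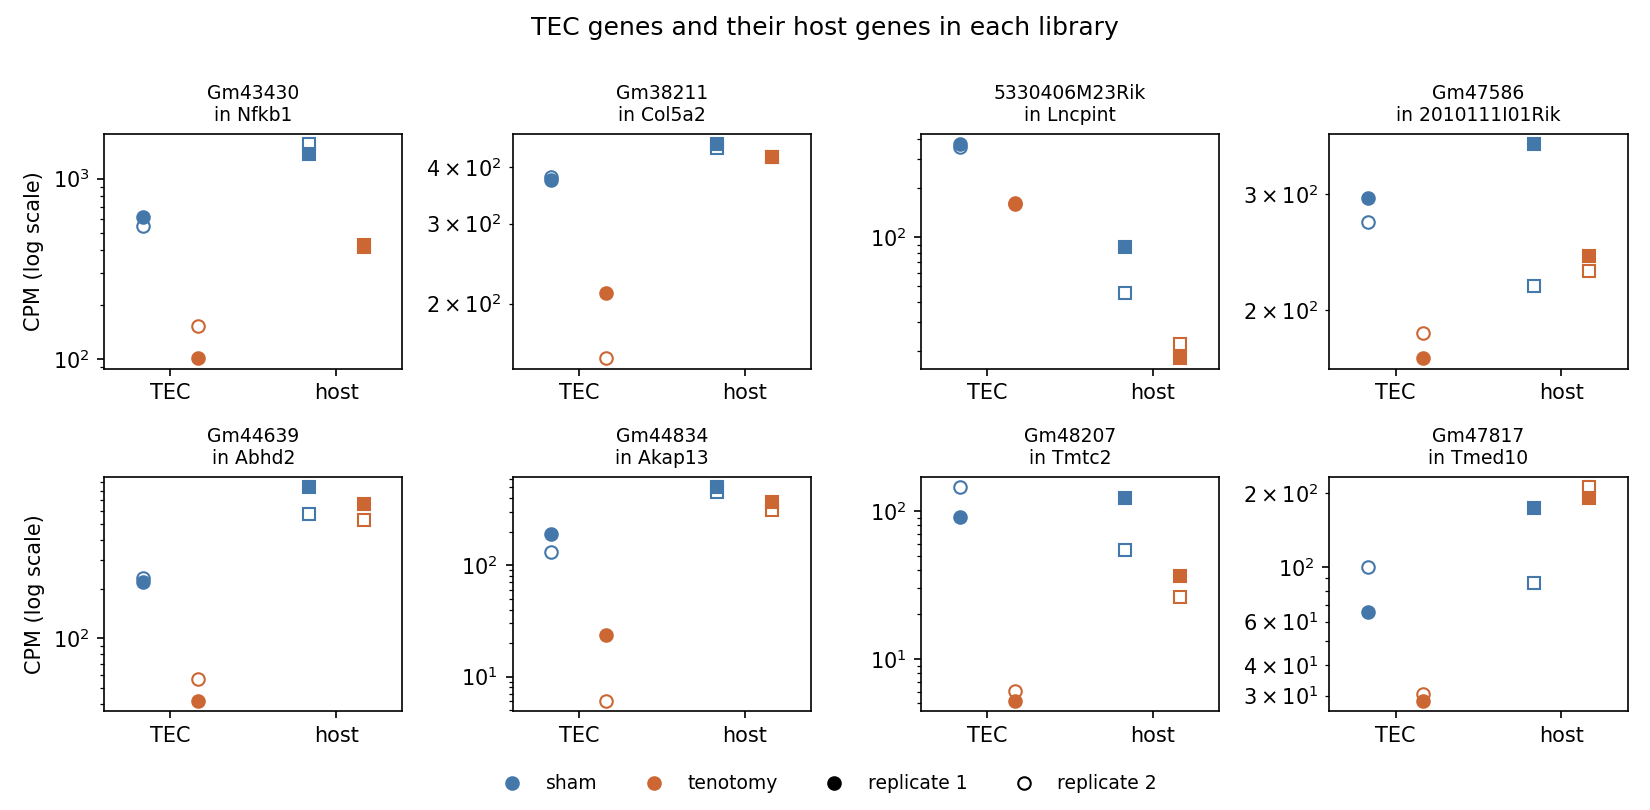
CPM on a logarithmic axis (each panel with its own range) of 8 TEC genes (circles) and their hosts (squares) in the 4 libraries, sham in blue and tenotomy in orange, with replicate 1 filled and replicate 2 open; coinciding points hide each other. In all 8 the TEC gene is lower in both tenotomy libraries, while Col5a2 differs little between the groups (log2 fold change -0.08) and Tmed10 is higher (174 and 86.1 against 190 and 211 CPM).

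Whether the TEC genes follow their hosts was asked for 71 pairs in which both genes were tested, 67 of them on the same strand, with 58 hosts. Of the 58 hosts 34 fell and 3 rose, with a median log2 fold change of -0.54 (-0.43 without sham replicate 1). With DESeq2 20 fell and 1 rose, with library sizes alone 22 and 9, and with offsets for abundance 16 and 8. In UMIs per tube 1 fell and 25 rose. Of all 7228 genes tested 1898 fell and 1868 rose, 1049 and 762 with DESeq2, and 1351 and 2694 with library sizes alone. With offsets 1558 of all genes fell and 1498 rose, and in UMIs per tube 331 and 4481. The 58 are hosts of TEC genes that passed the filter on low counts, which 23 of 84 did through the sham libraries. Among the 115 tested hosts of all 187, 49 fell and 11 rose, with a median log2 fold change of -0.35, beside 26.3% and 25.8% of all genes tested. TEC gene and host had the same sign of log2 fold change in 63 of 71 pairs, 57 with both negative and 6 with both positive. In the other 8 the TEC gene was negative and the host positive. As 65 of the 71 TEC genes and 57 of the 71 hosts were negative, most of the shared signs follow from these counts alone. All 6 positive TEC genes had a positive host, and 0 pairs had a positive TEC gene with a negative host. In these 6 pairs only the TEC gene Gm48015 and the host Myo10 passed the threshold, so the other signs are those of changes that did not pass. Some of the 6 TEC genes, Gm48015 among them, reached the minimum of the filter in the tenotomy libraries alone, which bears on their sign. Whether a TEC gene follows its own host was not tested with the signs. Over the 71 pairs Pearson's r was 0.50 and Spearman's coefficient was 0.41. These describe pairs that share libraries and, in part, hosts. On the same strand, unspliced RNA of the host may be counted for the TEC gene. For 55 other noncoding genes with a tested host the sign was shared in 41 pairs (47 noncoding genes and 39 hosts negative), with r = 0.53 and a Spearman coefficient of 0.59. By the test calls, both fell in 36 pairs, the TEC gene fell and the host did not pass in 13, and the TEC gene did not pass while the host fell in 10. The sharing of sign depended on the scale, as it held for 31 of 71 pairs in UMIs per tube.

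The tested TEC genes changed by a more negative value than their hosts in most pairs. Their median log2 fold change was -1.27 over the 71 pairs, against -0.53 for the host, and 59 of 71 lay below the host. Of the 55 other noncoding genes 45 lay below the host, with a median difference of -0.80, against -0.64 for the TEC genes. These sets were not compared by a test. The difference was tested in each pair with edgeR's diffSpliceDGE, adjusted over 126 pairs of noncoding gene and host. It passed in 27 of the 71, with 21 hosts, all on the same strand and all with the TEC gene lower. Of the 55 pairs of other noncoding genes, 30.9% passed, 14 with the noncoding gene lower and 3 with it higher. The number rested on the libraries in part, being 10 without sham replicate 1, 5 without sham replicate 2, 9 without tenotomy replicate 1 and 21 without tenotomy replicate 2, with the TEC gene lower in each. Only 3 of the 27, for Gm44834, Gm44639 and Gm43359, passed without each library in turn. With no filter on low counts 4 of 171 pairs passed. The adjustment then covered more pairs than the 126, since less counted noncoding genes were included. This holds wherever the pair test is given with no filter. In UMIs per tube, where the scaling is shared by both genes of a pair, 18 of the 71 passed, all with the TEC gene lower. The share of the 55 pairs of other noncoding genes that passed is not given under these other settings. Whether the losses are particular to TEC genes was therefore not tested. A pair that did not pass is not shown to change alike. The filter on low counts bears on these values as well, since 10 of the 27 TEC genes reached its minimum of 30.4 CPM (of all UMIs) in both sham libraries and in neither tenotomy library. For the 29 TEC genes that reached its minimum in all 4 libraries, 27 pairs remained, of which 25 shared the sign, 23 had the TEC gene below the host and 10 passed, all with the TEC gene lower. Their median log2 fold change was -1.11, against -0.52 for the host. The 55 pairs of other noncoding genes were not limited in this way. Without the filter on low counts, the UMIs of a TEC gene were divided by those of its host for the 166 whose host was counted in every library. The tenotomy range of this ratio was below the sham range for 73 of 166 and above it for 16, and the ranges overlapped for 77. Such a count is not given for other pairs of noncoding gene and host, so it is a description only.

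**Figure D4:**
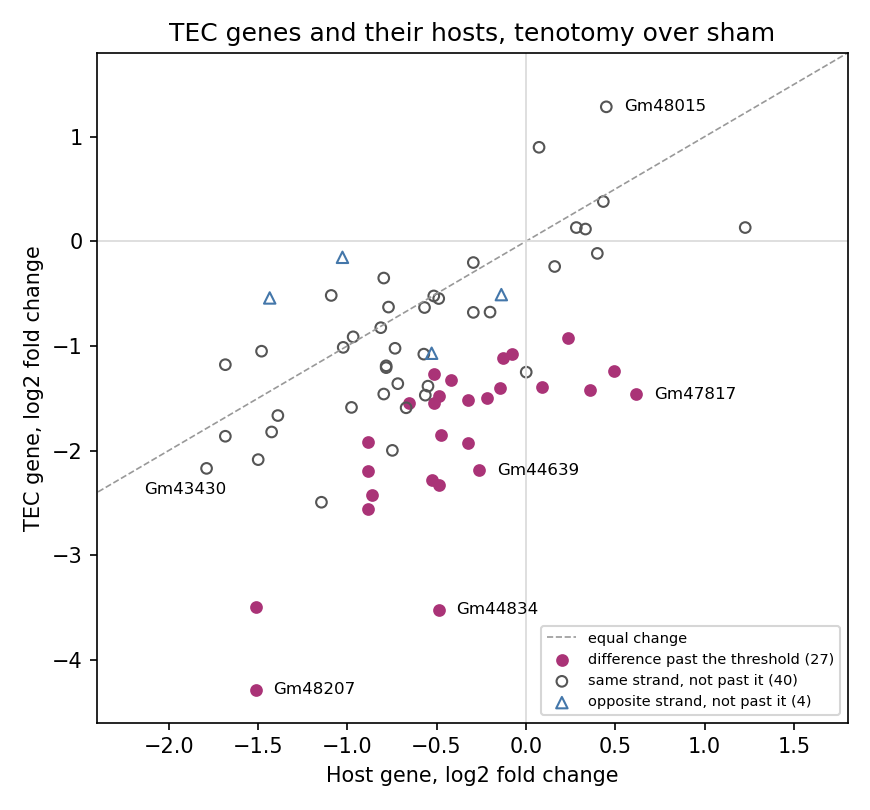
Each point is 1 of 71 pairs, with the log2 fold change (tenotomy over sham) of the host on the horizontal axis and of the TEC gene on the vertical axis. Filled points mark the 27 pairs whose difference passed the test, open circles other same-strand pairs, triangles the 4 opposite-strand pairs, and 59 of 71 lie below the dashed line of equal change.

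Akap13 held TEC genes that differed in their distance from the host. Gm44834 (chr7:75481999-75483394, plus strand) had 44 and 29 UMIs in sham and 9 and 3 in tenotomy, while Akap13 had 115 and 100 UMIs in sham and 142 and 155 in tenotomy. The TEC gene had a log2 fold change of -3.52 (SE 0.44) and Akap13 of -0.49 (SE 0.17), a difference of -3.03 (SE 0.47, adjusted p = 1.7e-06, edgeR). Gm44834 was tested because it was high in sham, being below the minimum of the filter in both tenotomy libraries (23.2 and 6.20 CPM of all UMIs), and the same holds for Gm44695. With no filter the difference of Gm44834 was -3.03 (adjusted p = 4.2e-06, edgeR) and that of Gm44695 was -1.84 and did not pass (adjusted p = 0.15). For each 100 UMIs of Akap13, Gm44834 had 34.0 in sham and 4.04 in tenotomy. Gm44695, with 16 and 21 UMIs in sham and 10 and 4 in tenotomy, fell by 2.33 on the log2 scale, and Gm44835 fell by 1.48. Gm44694 had 12 and 21 UMIs in sham and 19 and 25 in tenotomy, had a log2 fold change of -0.55 that did not pass (adjusted p = 0.24, edgeR), and differed from Akap13 by -0.06. The fall of Akap13 itself did not pass without sham replicate 1 (adjusted p = 0.21), and the difference between Gm44695 and Akap13 did not pass without sham replicate 2 (adjusted p = 0.15) or without tenotomy replicate 2 (adjusted p = 0.11). Gm44694 is outside the naming rule, as is Gm38340 of Tshz3, and they are given because they share a host with genes named by it.

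Gm44639 in Abhd2 and Gm43359 in Atp2a2 showed the other differences that passed without each library in turn. Gm44639, described above, was at 222 and 236 CPM in sham and 41.6 and 56.7 CPM in tenotomy, whereas Abhd2 was at 840 and 575 CPM in sham and 660 and 527 CPM in tenotomy. The groups of the TEC gene lay far apart and those of the host overlapped, and the difference was -1.92 (SE 0.32, adjusted p = 1.9e-05, edgeR). Gm43359, on the strand of Atp2a2, had 37 and 28 UMIs in sham and 8 and 18 in tenotomy with a log2 fold change of -2.28, against -0.53 for Atp2a2, a difference of -1.75 (SE 0.39, adjusted p = 0.0023, edgeR). The fall of Atp2a2 did not pass without sham replicate 1 (adjusted p = 0.35). Gm43361, which stands on the opposite strand of Atp2a2, differed from it by -0.54 (SE 0.30, adjusted p = 0.22, edgeR).

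With edgeR, both genes passed the threshold in opposite directions in 1 pair, a call that rests on the rise of the host, which was lost with DESeq2 (adjusted p = 0.31). Gm47817 had 15 and 22 UMIs in sham and 11 and 15 in tenotomy and fell by 1.46 on the log2 scale (SE 0.38, adjusted p = 0.0052, edgeR). Its host Tmed10, which encodes a cargo receptor between endoplasmic reticulum and Golgi, had 40 and 19 UMIs in sham and 73 and 104 in tenotomy and rose by 0.62 (SE 0.26, adjusted p = 0.060, edgeR). The difference was -2.08 (SE 0.46, adjusted p = 0.0023, edgeR). The spread between the sham libraries of Tmed10 was wide, and without sham replicate 2 neither its rise (adjusted p = 0.60) nor the difference (adjusted p = 0.24) passed. Without tenotomy replicate 2 its rise did not pass either (adjusted p = 0.14).

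Tmtc2, which encodes a glycosyltransferase of the endoplasmic reticulum, held 3 TEC genes. Gm48207 and Gm48204 were tested through sham alone, as neither tenotomy library reached the minimum of the filter, and Gm48203, with 7 and 11 UMIs in sham and 2 and 3 in tenotomy, was too low to be tested. Gm48207 had 21 and 32 UMIs in sham and 2 and 3 in tenotomy, and Gm48204 had 23 and 36 UMIs in sham and 1 and 9 in tenotomy. Their log2 fold changes were -4.28 (SE 0.49) and -3.49 (SE 0.49). Tmtc2 itself, with 28 and 12 UMIs in sham and 14 and 13 in tenotomy, fell by 1.51 (SE 0.42), less than either. With no filter the differences from the host did not pass (adjusted p = 0.12 for Gm48207 and 0.33 for Gm48204, edgeR). With the filter, the difference of Gm48207, -2.77 (SE 0.65, adjusted p = 0.0081, edgeR), did not pass without sham replicate 2 (adjusted p = 0.19) or without tenotomy replicate 1 (adjusted p = 0.15). Nor did the fall of Tmtc2 without sham replicate 1 (adjusted p = 0.22).

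Med13l, a subunit gene of the Mediator kinase module, held 3 TEC genes with a difference past the threshold. Of these only Gm43788 reached the minimum of the filter in the tenotomy libraries, while Gm43274 and Gm43275 were tested through sham alone, which bears on their direction. Gm43788 had 29 and 37 UMIs in sham and 12 and 22 in tenotomy, Gm43274 had 19 and 19 against 4 and 12, and Gm43275 had 10 and 9 against 3 and 3. In CPM both tenotomy libraries lay below both sham libraries in these 3 genes, as they did in 31.7% of all genes with at least 20 UMIs. The log2 fold changes of the 3 were -1.92, -2.19 and -2.56 while that of Med13l was -0.89. The 3 differences, between -1.68 and -1.03, did not pass with no filter (adjusted p between 0.47 and 0.60), without sham replicate 2 (adjusted p between 0.25 and 0.36) or without tenotomy replicate 1 (adjusted p between 0.16 and 0.31), and that of Gm43275 also not without sham replicate 1 (adjusted p = 0.17) or tenotomy replicate 2 (adjusted p = 0.14), nor that of Gm43274 without sham replicate 1 (adjusted p = 0.10). In Tshz3, Gm37452 and E230020A03Rik fell (log2 fold changes -1.27 and -1.55, against -0.52 for the host), whereas Gm38340, with 22 and 22 UMIs in sham and 35 and 24 in tenotomy, had a log2 fold change of -0.52 that did not pass (adjusted p = 0.23, edgeR), equal to that of Tshz3. The differences of Gm37452 and E230020A03Rik from Tshz3 did not pass without sham replicate 1, sham replicate 2 or tenotomy replicate 1 (adjusted p between 0.14 and 0.37), nor that of Gm37452 without tenotomy replicate 2 (adjusted p = 0.20). The fall of Tshz3 did not pass without sham replicate 1 (adjusted p = 0.35).

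The other 13 pairs past the threshold had hosts of several kinds. Among them were Gm43362 in Srsf11 and B130021K23Rik in Isy1, genes of splicing, 4833412C15Rik in Rbfox2, a regulator of splicing, and Gm48958 in Samd4, a translational repressor gene. Their differences from the host were between -1.56 for Gm48958 and -0.89 for Gm43362. Others were Gm38380 in Ncoa2, a transcriptional coactivator gene (-1.78), Gm43984 in Etv6, a transcription factor gene (-1.49), and Gm45640 in Chd9, a chromatin remodeller gene (-1.603). Gm40309 lies in Ube2k (-0.98), D530018E20Rik in Kcmf1, a ubiquitin ligase gene (-1.19), and Gm37653 in Rc3h1, which encodes Roquin, an RNA-binding protein of mRNA decay with a ubiquitin ligase domain (-1.38). The roles are background, not a fixed grouping. C530043K16Rik in Apbb2, an adaptor gene (-1.73), 5330431K02Rik in Map1b, a microtubule protein gene (-0.91), and Gm38365 in Dgkd, a diacylglycerol kinase gene (-1.16), complete the list. Gm48958, Gm38380, Gm45640 and Gm37653 were tested through sham alone. The host did not pass the threshold in 9 of these 13 pairs. Of the 4 hosts that fell, Srsf11 and Samd4 kept the call without any single library, whereas Map1b and Rc3h1 lost it without sham replicate 1 (adjusted p = 0.24 and 0.19), without sham replicate 2 (0.20 and 0.21) and without tenotomy replicate 2 (0.22 and 0.30). All 13 differences were lost without at least 1 library, 0 of them passing without sham replicate 1, 2 without sham replicate 2, 3 without tenotomy replicate 1 and 6 without tenotomy replicate 2.

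In some pairs both genes fell without a difference past the threshold, which does not show that they changed alike. Among these was A130012E19Rik in Zfc3h1, which encodes a factor of nuclear RNA decay. It had 43 and 40 UMIs in sham and 13 and 25 in tenotomy (log2 fold change -2.09, host -1.50). Another was 9930017N22Rik in Mtdh (-1.38, host -0.55), with a difference of -0.84 (SE 0.37, adjusted p = 0.12, edgeR). The call of Mtdh was lost without sham replicate 2 (log2 fold change -0.49) and without tenotomy replicate 2 (-0.27). Gm45220 in Picalm, a clathrin adaptor gene, was a further one (-1.19, host -0.78). The call of Gm45220 was lost without sham replicate 1 (adjusted p = 0.13). The 5 TEC genes of Ank2 had 43 and 51 UMIs together in sham and 26 and 38 in tenotomy, and Ank2 fell by 1.48 on the log2 scale. The only one of them tested, Gm42971, fell by 1.05. The TEC genes of Ank2 are outside the naming rule and were picked with their values known.

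The 11 hosts that rose held 13 of the TEC genes, 3 of them tested, and their summed share overlapped between the groups. They held 73 and 73 UMIs together in sham and 102 and 180 in tenotomy, that is 0.0271% and 0.0280% of all UMIs in sham and 0.0263% and 0.0372% in tenotomy, a ratio of the mean shares of 1.15. In CPM, both tenotomy libraries were below both sham libraries in 1 of the 13 and above in 3, beside 31.7% and 37.7% of all genes with at least 20 UMIs. The 77 TEC genes whose hosts fell held 0.503% and 0.510% in sham and 0.207% and 0.225% in tenotomy, a ratio of 0.426, and the 67 whose tested hosts did not pass had a ratio of 0.707. Both tenotomy libraries were below both sham libraries in 64 of the 77 and above in 0, and in 36 and 9 of the 67. On the same strand, unspliced RNA of the host may be counted for the TEC gene, so these groups are a description. Besides Gm47817, described above, the tested ones were Gm48996 and Gm38359.

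Gm48996 in Myo10, the gene of a filopodial myosin, had 10 and 9 UMIs in sham and 11 and 30 in tenotomy, a log2 fold change of 0.13 that did not pass (adjusted p = 0.83, edgeR), while Myo10 rose by 1.23 (adjusted p = 0.00070, edgeR). Enah, an actin regulator gene, held 3. Gm38359 had 7 and 9 UMIs in sham and 3 and 26 in tenotomy, with a log2 fold change of -0.12 that did not pass (adjusted p = 0.89, edgeR), and its tenotomy libraries lay on either side of the sham libraries. Gm37258 had 4 and 12 UMIs in sham and 6 and 12 in tenotomy, and Gm37018 had 8 and 3 against 7 and 8. The rise of Enah, 0.40 (adjusted p = 0.091, edgeR), was lost without each library in turn (adjusted p between 0.12 and 0.43) and with DESeq2 (adjusted p = 0.42). Among those not tested, Gm19817 in Dclk1, a doublecortin-like kinase gene, had 0 and 2 UMIs in sham and 6 and 28 in tenotomy, and Dclk1 had 3 and 3 against 129 and 183.

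The 4 TEC genes of Pcdh7, a protocadherin gene, had 15 and 21 UMIs together in sham and 41 and 65 in tenotomy, and the log2 fold change of the one tested was 0.13, against 0.28 for Pcdh7, neither of which passed. Gm48015, in Flrt2, was the only TEC gene past the threshold upward, with 5 and 1 UMIs in sham and 12 and 17 in tenotomy (1.29, SE 0.57, adjusted p = 0.074, edgeR), while Flrt2 did not pass (0.45, adjusted p = 0.14, edgeR). Gm48015 was tested through tenotomy alone, with no sham library at the minimum of the filter, and with no filter its rise did not pass (adjusted p = 0.11). Nor did it pass without sham replicate 2 (adjusted p = 0.51), without tenotomy replicate 1 (adjusted p = 0.11) or without tenotomy replicate 2 (adjusted p = 0.23), or with DESeq2 (adjusted p = 0.42). Gm48015, Gm48996, Gm19817 and the TEC genes of Enah and Pcdh7 are outside the naming rule and were picked with their values known.

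The position of the TEC genes within their hosts was compared with their fold change. The 160 in same-strand introns lay at a median of 0.352 of the way from the start to the end of the host, whose median span was 118 kb, with 72 nearest the start, 58 in the middle and 30 nearest the end when each host was cut into equal parts. Only 5 lay within 10 kb of the end of the host. The median log2 fold change was -1.54 for 31 tested in the part nearest the start, -1.05 for 31 in the middle and -1.01 for 13 nearest the end. Over these 75 Spearman's coefficient between position and log2 fold change was 0.38, a description of genes that share libraries and hosts. These are the tested ones among the 160. For the 26 of them at the minimum of the filter in all 4 libraries the medians were -1.30, -0.99 and -1.13 (10, 10 and 6 genes), in no order along the host, and the coefficient was 0.25. Over all 160, with no filter, the ratio of the mean shares of UMIs of tenotomy to sham was 0.510 in the part nearest the start, 0.554 in the middle and 0.676 nearest the end. With an A run 29 of 42 tested fell (median -1.22), and without a run 27 of 42 fell (median -1.28).

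In CPM, the tested long noncoding RNAs that stay in the nucleus were also lower. Malat1, with 665 and 643 UMIs in sham and 484 and 334 in tenotomy, had a log2 fold change of -1.596, and those of Neat1, the scaffold of paraspeckles, Kcnq1ot1, an imprinted antisense RNA, and Meg3 were -0.98, -1.38 and -2.11. Of the 6 on the list 4 were tested, and all 4 fell, beside 26.3% of all genes tested. In UMIs per tube the groups overlapped for Neat1, with 156 and 145 in sham and 172 and 119 in tenotomy. Snhg14, with 5 and 3 UMIs in sham and 6 and 12 in tenotomy, was too low for the test, and Miat is not listed. Their summed UMIs were 1398 and 1331 in sham and 948 and 760 in tenotomy, and their part in the result of the TEC genes was not tested.

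Markers of other cells also differed between the groups. Leukocyte markers summed to 2 and 5 UMIs in sham and 40 and 94 in tenotomy, led by Lyz2, with 6 of the 8 at 0 in sham, and Lyz2, the only one tested, rose. Ptprc, which encodes the pan-leukocyte antigen CD45, had 0 and 1 UMIs in sham and 1 and 4 in tenotomy. Mural markers summed to 132 and 121 in sham and 414 and 602 in tenotomy, led by Acta2, and of the 3 of 5 tested Acta2 and Rgs5 rose, while Myh11 was at 0 in sham. Myofiber markers summed to 275 and 158 in sham and 840 and 943 in tenotomy, led by Acta1, and all 4 tested of 5 rose. Endothelial markers, none of 4 tested, summed to 8 and 3 in sham and 28 and 26 in tenotomy, led by Cdh5. Fibro-adipogenic markers summed to 734 and 675 in sham and 795 and 947 in tenotomy, led by Col1a1. Of the 4 of 6 tested 3 fell, and Pdgfra, a defining one, was at 0 in sham and at 2 and 0 in tenotomy. Of the 8 MuSC markers Cdh15 and Itga7 rose, Pax7, Vcam1, Sdc4, Calcr and Chodl fell and Myf5 did not pass, with sums of 1371 and 1117 in sham and 1570 and 1726 in tenotomy. The part of these cells in the result was not tested.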

How the data were processed

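Per the labels and the study's methods, the authors extracted barcodes and UMIs with UMI-tools 1.0.0, aligned reads to GRCm38 with HISAT2 2.1.0, assigned them with featureCounts 1.6.4 and deposited one UMI count per gene and library, without normalization. Strand setting and annotation release are not given in the sources used here. All 19353 identifiers matched GENCODE M21 (GRCm38), 19331 with the same name. Coordinates, hosts and transcript sequences came from it. No genome sequence was used, so bases beyond gene ends were not searched for motifs. A further sequence is not reported here.

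Counts were scaled by TMM and tested with edgeR 4.0.16 in R 4.3.3 (glmQLFit, glmQLFTest, filterByExpr with minimum count 10 and total 15, 7228 genes, adjusted p threshold 0.1, prior count 0.125). The common biological coefficient of variation was 9.50%. CPM refer to the UMIs of tested genes. A host is a gene of another class overlapping by at least 1 base, same strand and protein-coding genes first. Pairs were tested with diffSpliceDGE. The depth of 260488 to 483528 UMIs leaves most TEC genes with few counts. The steps were tested on simulated data.

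Genes were named if past the threshold (up to 20, by total), among the 10 most counted, at the minimum of 20 UMIs, or past the pair test. The set of TEC genes and the lists were chosen with earlier results of these data known. The alternatives were DESeq2 1.42.0 and its size factors, library sizes alone, UMIs per tube, offsets for abundance, no filter, other minimum totals, an adjusted p of 0.05, other host rules, a replicate block and each library left out. The pair test with DESeq2 size factors and per tube, and the limit to TEC genes at the minimum in all 4 libraries, were added after seeing the data.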

Additional observations from a re-analysis of the deposited data

How the results depend on the processing

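The shares of UMIs changed little, with log2 ratios of -0.90 to -0.77 without each library in turn. The number of TEC genes that rose, 1, was 4 with library sizes alone, 9 in UMIs per tube and 7 with no filter. It was 0 with offsets for abundance, with DESeq2, with a minimum of 40 UMIs and at an adjusted p of 0.05. Of all 7228 genes tested 1868 rose, against 2694 with library sizes alone, 4481 in UMIs per tube and 1498 with offsets. With DESeq2 762 rose, at an adjusted p of 0.05 1546, and with no filter 2451 of 19353. The number that fell, 56, was 51 with library sizes alone, 17 in UMIs per tube, 63 with offsets and 33 with DESeq2. Of all genes tested 1898 fell, against 1351, 331, 1558 and 1049 with these settings in turn. At an adjusted p of 0.05, 55 of the TEC genes and 1638 of all genes fell. The median log2 fold change was -0.95 with library sizes alone (all genes 0.33), -0.26 in UMIs per tube (all genes 1.01), -1.50 with offsets, -0.87 with no filter and -1.23 to -1.16 without each library. TEC gene and host had the same sign in 31 of 71 pairs in UMIs per tube, 38 of 71 with offsets and 134 of 171 with no filter, and in 59 to 64 of 71 without each library. Of the 58 hosts, 34 fell and 3 rose, against 1 and 25 in UMIs per tube. The difference from the host passed in 4 pairs with no filter, in 15 at an adjusted p of 0.05 and in 5 to 21 without each library, and it was not tested with offsets. Gm47586 (0.28) and Gm38365 (0.035) changed sign in UMIs per tube, as did Gm48015 with offsets (-0.73). Of the 37 tested genes named, 20 kept their sign but no longer passed in UMIs per tube, beside the 2 that changed sign, and 10 no longer passed with DESeq2. The cause was not tested.

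Limited to the 29 TEC genes at the minimum of the filter in all 4 libraries, a choice made after seeing the data, 21 fell and 0 rose with a median log2 fold change of -1.08. In their 27 pairs the sign was shared in 25 and the difference passed in 10.

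Replicate numbers are shared by the groups, but the deviations of libraries with the same number had r = -0.034. With 2 libraries per group this does not settle whether the numbers pair the libraries, and whether libraries of the same number came from 1 mouse is not given in the sources used here. With the replicate number as a block, 58 TEC genes fell and 0 rose, and 16 pairs differed.

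With sums of 20 to 376 UMIs per gene over 4 libraries, changes of single TEC genes are imprecise, and 103 of the 187 were too low to be tested.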
